A study of Mus musculus with 48 samples.

Results

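The step between the upper 2 doses of dichloroacetic acid (DCA) was examined in flash-frozen (FROZ) mouse liver, to find which genes had reached a plateau and which still rose or fell. The members were chosen by dose from the sample labels. They were the 6 FROZ libraries of mice given 427 mg/kg-d (animals 97, 98, 99, 100, 101 and 102) and the 6 of mice given 313 mg/kg-d (animals 73, 74, 75, 76, 77 and 78), which made 12 of the 48 libraries of the series. All animals were male B6C3F1 mice whose labels give an age of 4 weeks, and DCA was taken in drinking water for 6 days at 2.0 g/L for the 313 mg/kg-d group and 3.5 g/L for the 427 mg/kg-d group. Vehicle controls at 0 mg/kg-d and mice at 198 mg/kg-d (1.0 g/L), with 6 FROZ libraries each, shared the same fit. Each library came from the liver of 1 animal that had been stored for decades, and it mixed pieces of different lobes and all cell types of the organ. In such a bulk sample, fewer cells of a type and less RNA per cell cannot be told apart.

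DCA is a small chlorinated acid that inhibits the pyruvate dehydrogenase kinases and in mouse liver acts as a weak peroxisome proliferator. Peroxisome proliferators activate PPARα, a nuclear receptor that switches on genes for fatty acid uptake, activation and oxidation in peroxisomes, mitochondria and the endoplasmic reticulum. The liver also makes most plasma proteins, among them complement factors, clotting factors and the acute phase proteins, which are controlled through interleukin 6 and STAT3. A set of hepatic cytochrome P450 and secreted protein genes differs between male and female mice through the pattern of growth hormone release and STAT5.

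Levels are given as read counts scaled to library size (CPM), recovered from the deposited log2(CPM + 1) values. Steps are differences of mean log2(CPM + 1), 427 minus 313 mg/kg-d, with the standard error (SE) of the limma fit, and a fold is 2 raised to that difference, so it understates the change of genes with low counts. The 12 libraries held 6.69 to 9.41 M recovered reads on listed genes, so that 1 read was worth 0.106 to 0.150 CPM. Median correlations of a library with the others of its dose were 0.9847 to 0.9895. Hepatocyte markers were present in every library, with a summed level of 24170 to 31530 CPM at 313 mg/kg-d and 27300 to 31720 CPM at 427 mg/kg-d, and 0 of 8 passed the FDR in limma, with 1 at an unadjusted p under 0.05. The labels do not name a batch, and each dose holds a single run of animal numbers, so order of handling and dose cannot be told apart.

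Of 11275 genes, 346 (3.07%) differed between 313 and 427 mg/kg-d at an FDR under 0.05, 195 (1.73%) with a rise and 151 (1.34%) with a fall. The median size was 0.58 on the log2 scale for the rises and -0.61 for the falls, while the median step of all genes was 0.00 and 50.9% of them had a step above 0. DEGs, which also needed a fold above 2, numbered 56 (0.497%), 30 up and 26 down. The libraries of the 2 doses did not overlap for 159 of the called genes, and for 231 genes (2.05%) in the whole table. The preceding step from 198 to 313 mg/kg-d, of 115 mg/kg-d against 114 for the last step, had 1319 called genes (908 up and 411 down). These daily intakes were estimated by the study. In drinking water the steps ran from 1.0 to 2.0 g/L and from 2.0 to 3.5 g/L, so their equal size holds for the estimated intake only. Without animal 99 the count of the last step was 187, with 107 rises and 80 falls, and without animal 101 it was 229, with 117 rises. Without animal 75 there were 92 falls. The exact rank sum test, whose smallest p with 6 against 6 libraries is 0.00216, called 0 genes over the table, with 1619 at an unadjusted p under 0.05.

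Genes that had already responded were taken as those whose mean over 313 and 427 mg/kg-d differed from controls at an FDR under 0.05 and by more than 2-fold. There were 294 such responders (2.61% of all genes), 190 increased (1.69%) and 104 decreased (0.922%). A responder was called a plateau gene where the 95% interval of its step lay within 1.5-fold in both directions, and still moving where the step passed the test in the direction of the response. A plateau interval could still exclude 0. Those of Lacc1, Cpt2, C2, Cfi and Cdhr5 did, on the side of the response, so a small onward step is part of that class. By these rules 67 responders (22.8%) met the plateau rule, 56 (19%) were still moving, 1 (0.34%) turned back and 170 (57.8%) could not be decided. The counts depended on the rules, with 6 on the plateau at a narrower margin and 160 at a margin of 2-fold. When responders were chosen at 313 mg/kg-d, 30 were still moving and 11 turned back, or 98 and 0 when they were chosen at 427 mg/kg-d. A choice at 1 of these doses reuses a mean that enters the step. By construction it favours steps back when made at 313 mg/kg-d and steps onward when made at 427 mg/kg-d. In the whole table the interval lay within 1.5-fold for 77.3% of genes, and its median half-width was 0.29 on the log2 scale against 0.44 over the responders. The median step was 0.39 over the 190 increased responders and -0.23 over the 104 decreased ones. Of the undecided genes, 35 had an estimate beyond 1.5-fold onward and 4 beyond 1.5-fold back. Without animal 99, 37 genes were still moving, 11 of them falling.

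**Figure D1:**
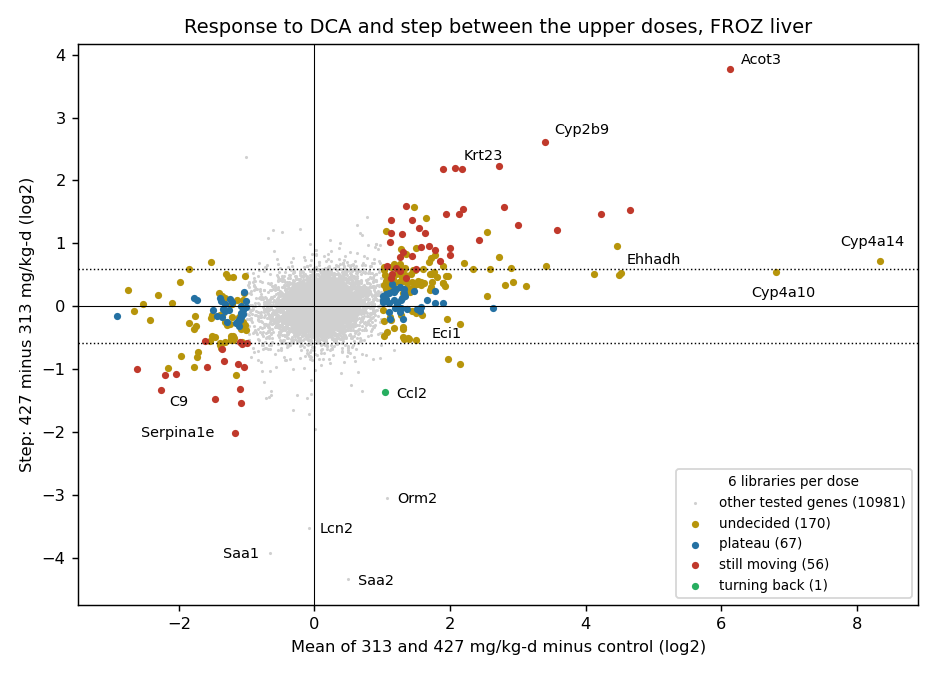
Each point is a gene of the FROZ table, with the mean of 313 and 427 mg/kg-d minus control on the x axis and the step from 313 to 427 mg/kg-d on the y axis, both in log2 units, and dotted lines at 1.5-fold. The 294 responders are coloured by class, Acot3 and Cyp2b9 stand at the top right, and Saa1, Saa2 and Lcn2 fell in the step without being responders.

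The largest rise was that of Acot3, an acyl-CoA thioesterase. These enzymes release free fatty acids from coenzyme A. Of 8 listed thioesterases 4 rose and 0 fell, with a median step of 0.62. Acot3, which is peroxisomal, ran from 8.34 to 149.6 CPM with a median of 42.9 at 313 mg/kg-d and from 295 to 1052 CPM with a median of 506 at 427 mg/kg-d. All 6 libraries of the upper dose lay above all 6 of the lower one, a 13.6-fold step (3.77 ± 0.45 SE, FDR = 1.17e-05). In controls Acot3 did not pass 1.91 CPM, and at 198 mg/kg-d it did not pass 2.77 CPM, so both upper steps were steep. Acot6, another peroxisomal member, rose from a median of 1.24 CPM (range 0.612 to 1.49) to 3.42 CPM (2.39 to 4.22), again without overlap (1.02 ± 0.14 SE, FDR = 0.000117).

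Cytosolic Acot1 lay at 31.9 to 424 CPM (median 213) at 313 mg/kg-d and at 271 to 728 CPM (median 567) at 427 mg/kg-d. The ranges overlapped, with 5 libraries above the whole lower group, and the step was 1.52 ± 0.38 SE (FDR = 0.0234). Mitochondrial Acot2 lay at 2.6 to 42.7 CPM (median 23.9) and then at 22.4 to 64.4 CPM (median 56.3), a step of 1.46 ± 0.40 SE (FDR = 0.0433). Both calls were near the threshold. That of Acot1 was lost without animal 99, 101 or 102 (FDR = 0.0523 to 0.0626), and that of Acot2 without any 1 of animals 76, 77, 78, 97, 99, 100, 101 and 102 (FDR = 0.0639 to 0.0909), so without animal 99, 101 or 102 only 2 thioesterases were called. Both calls were also lost in a fit of the 12 libraries alone (FDR = 0.0909 for Acot1), where 2 thioesterases were called.

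These 4 thioesterase genes lie close together on mouse chromosome 12 (GRCm38, chr12:83950608-84111349), in an interval whose ends were set by rising genes. All 5 tested genes of that interval rose, which follows in part from how it was drawn. The fifth is Riox1, a ribosomal oxygenase at its proximal end, which went from a median of 5.21 CPM (4.17 to 6.36) to 7.17 CPM (6.1 to 9.6). Its step was 0.45 ± 0.12 SE (FDR = 0.0419), and the call was lost when any 1 of 8 libraries was left out, animals 74, 75, 76, 78, 97, 99, 101 and 102 (FDR = 0.0515 to 0.11). Close paralogs can share reads. Of the 50-base windows of its transcripts, Acot2 shares 27.7% with other genes, mostly Acot1, and Acot3 shares 19.1%. The assay counts short targeted stretches of a transcript, and which stretches were targeted was not examined. A share of windows, here and below, therefore does not show whether reads were shared. Shares are not given beside every gene. Selenbp2 (43.9%), Mup20 (50.5%) and Ugt2b38 (37.4%), among others named below, also share windows with other genes. Among all 194 placed rises, 23 had another rising gene within 100 kb, and among 151 placed falls, 15 had another falling gene. The share over all tested genes was not computed, so these counts do not show clustering.

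Of 27 listed PPARα targets outside the oxidation enzymes 7 rose and 0 fell, with a median step of 0.37. Krt23, a keratin, had 2.08 to 6.33 CPM (median 3.81) at 313 mg/kg-d and 17.9 to 25 CPM (median 19.7) at 427 mg/kg-d. Its groups were far apart, a 4.61-fold step (2.21 ± 0.17 SE, FDR = 4.35e-09), the lowest p of the table. The step exceeded that from 198 to 313 mg/kg-d (0.76 ± 0.17 SE) by 1.45 ± 0.29 SE (FDR = 0.0111). Pdk4, a pyruvate dehydrogenase kinase, went from a median of 8.89 CPM (2.89 to 24) to 41 CPM (15.9 to 71.3), with 5 libraries above the whole lower group and a step of 2.18 ± 0.43 SE (FDR = 0.006).

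Angptl4, a secreted inhibitor of lipoprotein lipase, had been at 318 to 991 CPM (median 816) and was at 1219 to 1498 CPM (median 1402) at the upper dose. The libraries did not overlap (1.13 ± 0.21 SE, FDR = 0.00279), although at 313 mg/kg-d the gene was not called against controls, at 0.13 ± 0.21 SE (FDR = 0.697). Plin2, which coats lipid droplets, moved from a median of 2517 CPM (1186 to 3086) to 3928 CPM (3432 to 4702), a 1.9-fold step without overlap (0.93 ± 0.18 SE, FDR = 0.00462). Acsl1, which activates long-chain fatty acids, had medians of 3004 and 4464 CPM and a step of 0.69 ± 0.16 SE (FDR = 0.0174). Its call was lost without animal 101 (FDR = 0.0507) and in a fit of the 12 libraries alone (FDR = 0.0656). The carnitine transporter Slc22a5 and Fitm2 completed the 7. The call of Slc22a5 (FDR = 0.0166) was lost with smaller offsets on the log scale (FDR up to 0.71).

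Of 19 listed genes that are higher in female than in male mice, 5 rose, 0 fell and the median step was 0.58. The 5 were the P450 genes Cyp2b9, Cyp2a4 and Cyp2c39, the transporter gene Abcd2 and the thioesterase gene Acot3. Without animal 99 the count was 3, and Cyp2c39 (FDR = 0.0228) was also lost without animal 74, 77 or 98 (FDR up to 0.0653). Cyp2b9 went from 1.49 to 16.4 CPM (median 7.51) to 18.9 to 159.7 CPM (median 41), and every library of the upper dose lay above the lower group. The step was 2.62 ± 0.39 SE (FDR = 0.000276), and it was not called with an offset of 0.0001 in place of 1 (FDR = 0.288). Cyp2a4, which hydroxylates testosterone, had 28.7 to 117 CPM (median 58.1) and then 213 to 569 CPM (median 228), a 4.71-fold step without overlap (2.23 ± 0.25 SE, FDR = 7.53e-06).

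Cyp2a22 rose in the same way, from a median of 6.09 CPM (4.57 to 11.6) to 41 CPM (19 to 63.9), with no overlap (2.18 ± 0.25 SE, FDR = 7.53e-06). Cyp2a5, which oxidises coumarin, had medians of 202 CPM (124 to 338) and 507 CPM (327 to 763), a 2.38-fold step (FDR = 0.000685) with a slight overlap. On chromosome 7, Cyp2b9 and Cyp2a4 lie near each other (chr7:26173411-26315088), as do Cyp2a5 and Cyp2a22 (chr7:26835305-26939384). These rising genes set the ends of both intervals, and no other tested gene lay inside. Of the 50-base windows of Cyp2a4, 38% occur in other genes, mostly Cyp2a5, and whether reads of these 2 genes were split between them was not tested. Cyp4a32 was the 1 of 13 omega-oxidation genes that was called, with medians of 36 and 126 CPM (1.46 ± 0.23 SE, FDR = 0.000622), and it shares 43.8% of its windows, mostly with Cyp4a10.

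Other responders still rose. Lepr, the leptin receptor, ran from 6.88 to 10 CPM (median 7.93) at 313 mg/kg-d and from 14.7 to 52.6 CPM (median 26.2) at 427 mg/kg-d. Its groups did not overlap and the fold was 3.02 (1.60 ± 0.22 SE, FDR = 8.17e-05). At 313 mg/kg-d it was 0.55 ± 0.22 SE above controls (FDR = 0.0615), so most of its difference from controls lay in the last step. Lpin2, a phosphatidate phosphatase of triglyceride synthesis, rose from a median of 682 CPM (464 to 885) to 1592 CPM (1212 to 1738), 2.25-fold and without overlap (1.17 ± 0.13 SE, FDR = 7.53e-06). Its preceding step, 1.19 ± 0.13 SE, was of nearly the same size. Elovl6, which lengthens palmitate, went from 111 CPM (96.3 to 169) to 233 CPM (178 to 254), also without overlap (0.89 ± 0.15 SE, FDR = 0.000919).

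The monocarboxylate transporter gene Slc16a5 had 34.6 to 89.1 CPM (median 54.2) and then 102 to 253 CPM (median 123). All upper libraries lay above the lower ones (1.29 ± 0.29 SE, FDR = 0.0145). Pdp2, a phosphatase that activates pyruvate dehydrogenase, had medians of 64.6 and 94.6 CPM (0.46 ± 0.11 SE, FDR = 0.0145). With Pdk4 and the mitochondrial pyruvate carrier gene Mpc2 it made 3 rises among 11 genes of the pyruvate dehydrogenase system, with 0 falls. The call of Mpc2 (0.30 ± 0.08 SE, FDR = 0.0313) was lost without animal 74, 77, 78, 99, 101 or 102 (FDR = 0.0545 to 0.093). The nuclear receptor gene Nr1i3 (CAR) rose from 328 to 477 CPM in median, and Nr1h4 (FXR, the bile acid receptor) from 389 to 507 CPM, each without overlap (0.60 ± 0.14 SE, FDR = 0.0175, and 0.42 ± 0.08 SE, FDR = 0.00636).

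The 39 increased genes on the plateau included enzymes of fatty acid oxidation. Eci1, a mitochondrial enoyl-CoA isomerase, had 252 to 550.2 CPM (median 446) at 313 mg/kg-d and 329 to 482 CPM (median 400.2) at 427 mg/kg-d, against 101 to 172 CPM in controls. The upper libraries lay inside the lower range and the step was -0.05, with a 95% interval of -0.35 to 0.26. Eci2, the peroxisomal isomerase, had medians of 299.8 and 339.5 CPM and an interval of -0.08 to 0.56. Abcd3, which carries acyl-CoA into the peroxisome, had medians of 401 and 432 CPM and an interval of -0.37 to 0.56.

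Plateau genes also included some outside fatty acid oxidation. Serinc2, the largest increase of the class, was at 21.9 to 99.1 CPM (median 65.6) and then at 43.4 to 83.5 CPM (median 55.5), while controls lay at 4.78 to 10.4 CPM. Its step of -0.02 (interval -0.58 to 0.54) followed one of 2.61 ± 0.27 SE, and the change of pace was -2.63 ± 0.47 SE (FDR = 0.00557). Gstt2, a glutathione transferase, had medians of 39.6 and 41.1 CPM (interval -0.33 to 0.44), Spon2, a secreted matrix protein, 30.1 and 27.1 CPM (-0.41 to 0.51), and Entpd5, a nucleoside diphosphatase, 336 and 347 CPM (-0.49 to 0.35). Jun, a subunit of the AP-1 transcription factor, was at 21.9 to 54.6 CPM (median 33.2) and then at 28.1 to 44.4 CPM (median 31.2), with an interval of -0.50 to 0.46.

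**Figure D2:**
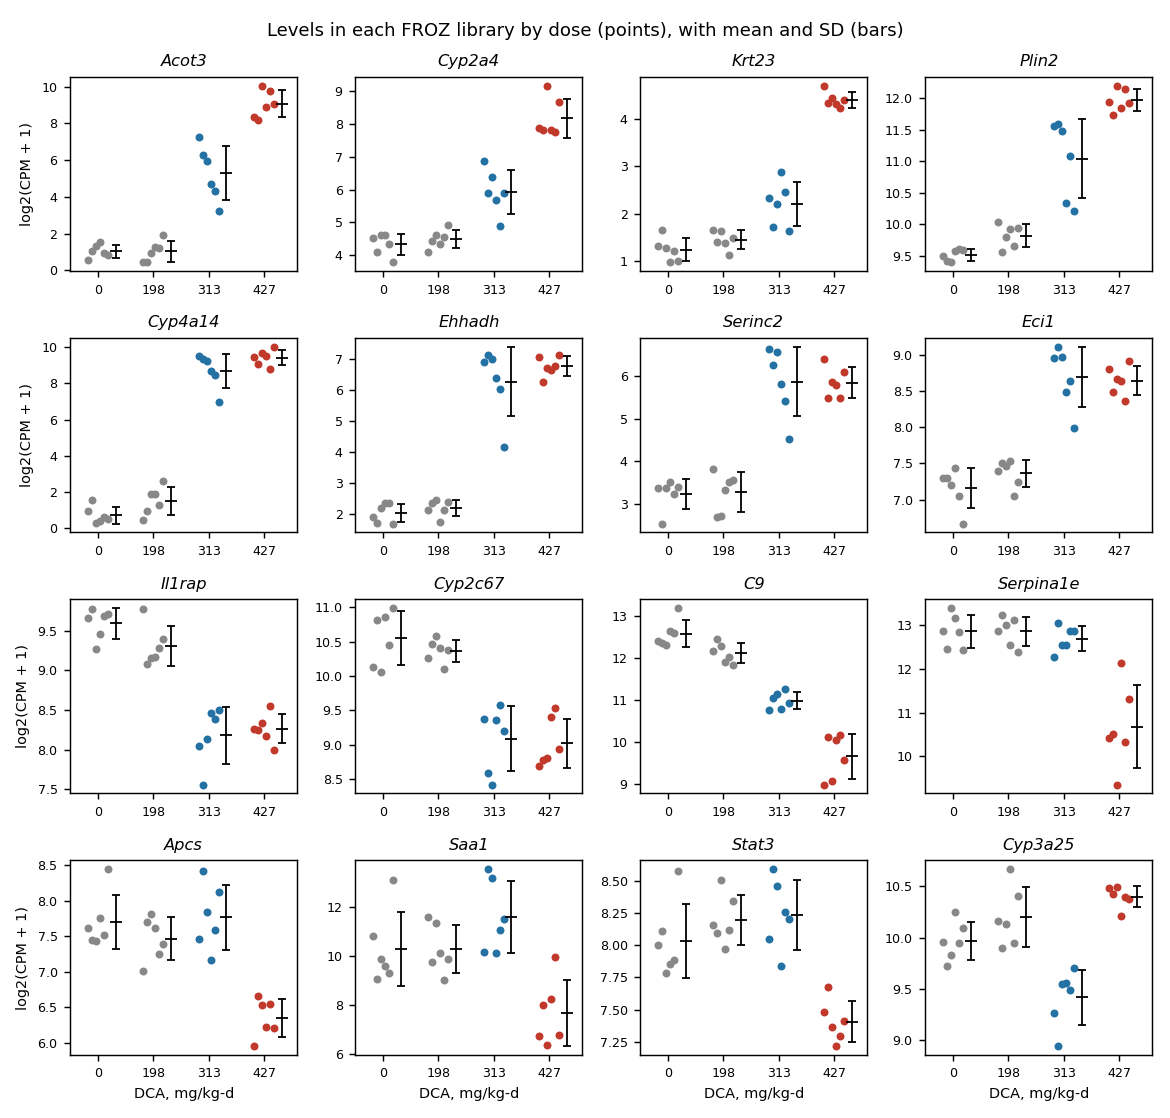
Log2(CPM + 1) of 16 genes is plotted for each FROZ library by dose in mg/kg-d, with the mean and SD of 6 libraries beside the points. Acot3, Cyp2a4, Krt23 and Plin2 still rose between 313 and 427 mg/kg-d, Serinc2, Eci1, Il1rap and Cyp2c67 stayed within the range set for a plateau, C9, Serpina1e, Apcs, Saa1 and Stat3 fell, and Cyp3a25 turned.

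Several genes with a steep earlier increase could not be placed in either class. Cyp4a14, a fatty acid omega-hydroxylase, went from at most 5.05 CPM at 198 mg/kg-d to 123 to 727 CPM (median 504) at 313 mg/kg-d and 450.0 to 1025 CPM (median 714) at 427 mg/kg-d. The groups overlapped, with 3 libraries above the whole lower group, and the last step of 0.72 ± 0.35 SE was not called (FDR = 0.277, interval 0.01 to 1.43). It was less steep than the preceding one of 7.18 ± 0.35 SE, by -6.45 ± 0.60 SE (FDR = 3.83e-07). Cyp4a10 had medians of 1866 and 2511 CPM (0.55 ± 0.41 SE, FDR = 0.517), and its steps differed by -5.24 ± 0.72 SE (FDR = 0.000293). Ehhadh, the peroxisomal bifunctional enzyme, had medians of 101 and 107 CPM and steps that differed by -3.58 ± 0.54 SE (FDR = 0.00139).

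Among 19 listed genes of peroxisomal beta-oxidation, 10 were increased responders, of which 4 were on the plateau, 1 still rose and 5 were undecided. The 1 that rose was Abcd2, a peroxisomal acyl-CoA transporter, with medians of 4.24 and 10.5 CPM (1.15 ± 0.27 SE, FDR = 0.018). Its call was lost without animal 99 (FDR = 0.0625). Acaa1a, a peroxisomal thiolase, had medians of 2247 and 2299 CPM (interval -0.30 to 0.63), just past the upper limit of 0.585 that the 1.5-fold margin sets. Of 17 genes of mitochondrial beta-oxidation, 1 rose, Decr1, whose call (FDR = 0.0265) was lost without animal 74, 78, 97 or 99 (FDR = 0.0557 to 0.0779). It was also lost in a fit of the 12 libraries alone (FDR = 0.0813). Of these 17 genes 15 had a step above 0, with a median of 0.23. In limma 9 of them were at an unadjusted p under 0.05, against 1975 of all 11275 genes, so few calls do not show that the list held still.

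Over the whole table, the last step differed from the preceding one for 221 genes (1.96%), with a less positive step for 138 (1.22%) and a more positive one for 83 (0.736%). This count depended on single libraries of both doses. It was 320 without animal 78, 32 without animal 74, 52 without animal 75, 113 without animal 73, 137 without animal 101 and 141 without animal 99.

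Decreased genes on the plateau numbered 28. Lrtm1 fell to the detection limit, at 0.122 to 1.93 CPM (median 0.428) at 313 mg/kg-d and 0.224 to 1.07 CPM (median 0.342) at 427 mg/kg-d, against 6.42 to 12.6 CPM in controls, so a further fall could hardly have been seen. Cyp2c67, a hepatic P450, had 342 to 765 CPM (median 622) and then 411 to 740.2 CPM (median 469.9), with an interval of -0.45 to 0.33. It shares 52.8% of its windows with other genes, mostly Cyp2c40, and whether its reads were shared was not tested. Il1rap, the accessory chain of the interleukin 1 receptor, had 188 to 363 CPM (median 306) and then 255 to 374 CPM (median 305), with an interval of -0.20 to 0.36, against 616 to 877 CPM in controls. The doses could not be separated for any of the 3.

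Hgfac, a serum protease that activates hepatocyte growth factor, had medians of 254 and 229 CPM (interval -0.42 to 0.10) against 653 CPM in controls. Ces2a, a carboxylesterase, had medians of 149 and 161 CPM (-0.18 to 0.45) against 439 CPM, and Zbtb16, a zinc finger transcription factor, of 5.26 and 5.8 CPM (-0.37 to 0.57) against 19.6 CPM. Clotting factor F5 and Omd, a matrix proteoglycan, had intervals of -0.54 to 0.19 and -0.30 to 0.56.

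Of 41 complement and coagulation genes 10 fell in the step, 0 rose and 36 had a step below 0, with a median of -0.20. Against controls 10 genes of the list were decreased responders, of which 5 were still falling, 4 were on the plateau and 1 was undecided, and some that fell in the step, such as Hc and Fga, were no responders. Without animal 74, 99 or 102 the count was 6. C9, the pore-forming component, ran from 1735 to 2441 CPM (median 2033) at 313 mg/kg-d and from 503 to 1139.6 CPM (median 907) at 427 mg/kg-d. The upper group lay wholly below (-1.33 ± 0.18 SE, FDR = 0.000105), after a preceding step of -1.13 ± 0.18 SE. C4b fell from a median of 33.4 CPM (29.3 to 42.6) to 17.5 CPM (10.3 to 26.9), also without overlap (-0.97 ± 0.16 SE, FDR = 0.000685), but 34.6% of its windows are shared, mostly with C4a.

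C8a and C8b, 2 chains of the same complement component that are neighbours on chromosome 4 (chr4:104766317-104876398), fell by similar amounts. C8a had 309.5 to 417 CPM (median 352) and then 188 to 308 CPM (median 251), without overlap (-0.58 ± 0.11 SE, FDR = 0.00303). C8b had medians of 633 and 450.0 CPM (-0.56 ± 0.12 SE, FDR = 0.0104), a call that was lost in a fit of the 12 libraries alone (FDR = 0.0523). Component 5, listed as Hc, fell from 724 to 519 CPM in median without overlap (-0.53 ± 0.12 SE, FDR = 0.0145). C6 and the 3 fibrinogen chains were also among the 10. The call of C6 (FDR = 0.0483) was lost without any 1 of animals 73, 74, 75, 76, 77, 97, 98, 99, 101 and 102 (FDR up to 0.133).

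Of 26 genes that are higher in male than in female liver 9 fell and 0 rose, with a median step of -0.47. Serpina1e, an alpha-1-antitrypsin gene, was at 4960.0 to 8518 CPM (median 6707) at 313 mg/kg-d against 5529.6 to 10737 CPM in controls, a difference that was not called (FDR = 0.719). At 427 mg/kg-d it was at 652 to 4518 CPM (median 1413), below every library of the lower dose, a 4.04-fold fall (-2.02 ± 0.29 SE, FDR = 0.000136). Of its windows 34.6% are shared with paralogs, mostly Serpina1d. Cyp7b1, an oxysterol hydroxylase of bile acid synthesis, fell from a median of 11.1 CPM (7.16 to 19.3) to 3.8 CPM (1.92 to 5.14), without overlap (-1.54 ± 0.26 SE, FDR = 0.000919).

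Elovl3, a fatty acid elongase, fell from a median of 1877 CPM (687 to 2165) to 734 CPM (324 to 1414), with overlap (-1.09 ± 0.26 SE, FDR = 0.0176). The call was lost without animal 99 (FDR = 0.0538) and in a fit of the 12 libraries alone (FDR = 0.0749). Selenbp2, a selenium binding protein, had medians of 115 and 55.8 CPM (-0.97 ± 0.17 SE, FDR = 0.00113), and Hsd3b5, a steroid dehydrogenase, of 6.07 and 2.44 CPM (-1.03 ± 0.23 SE, FDR = 0.0135). C8a, C9 and C6 are on this list too, with Ugt2b38, whose call (FDR = 0.0408) was lost without animal 76, 77, 78, 97, 98, 99 or 102 (FDR up to 0.102). Mup20, a male urinary protein, went the other way, at medians of 267 and 424 CPM, a difference that was not called (0.61 ± 0.38 SE, FDR = 0.421). The STAT5 targets Socs2 and Cish were not called either (-1.03 ± 0.58 SE, FDR = 0.36, and -0.78 ± 0.48 SE, FDR = 0.414).

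Further falls lay outside these lists. Scara5, a ferritin receptor, had 1.1 to 3.25 CPM (median 2.2) and then 0.108 to 0.533 CPM (median 0.174), where 1 read was worth 0.106 to 0.150 CPM, so the upper group was near its detection limit (-1.31 ± 0.22 SE, FDR = 0.000919). Egfr, the epidermal growth factor receptor, had medians of 1092 and 605 CPM (-0.71 ± 0.16 SE, FDR = 0.0135). Ces3b, a carboxylesterase, had 546 and 291 CPM (-0.91 ± 0.18 SE, FDR = 0.00628). Of 23 genes of cholesterol synthesis and uptake 5 fell and 0 rose, with a median of -0.33, led by squalene epoxidase, Sqle, at medians of 77 and 42.5 CPM (-0.76 ± 0.18 SE, FDR = 0.015). Only Sqle was still called without animal 99. Mvk, Hmgcs1, Msmo1 and Dhcr7 were lost there, and the count was 3 without animal 73, 78, 97 or 100 and 2 without animal 74, 75, 98, 101 or 102.

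Of 24 acute phase genes 11 fell and 0 rose, with a median of -0.64, and the 4 largest falls of the table, Saa2, Saa1, Lcn2 and Orm2, were among them. The summed level of the list ran from 29310 to 73190 CPM (median 46220) at 313 mg/kg-d and from 22690 to 30630 CPM (median 24710) at 427 mg/kg-d. In controls it was 36970 to 76240 CPM. Against controls 3 genes of the list were called up and 5 down at 313 mg/kg-d. The list's median difference from controls was 0.04 on the log2 scale there and -0.76 at 427 mg/kg-d. Saa1 encodes a serum amyloid A protein. It was at 1119.6 to 12060.0 CPM (median 2587) and then at 80.8 to 1003 CPM (median 184), so the groups came close without overlap, a 15.2-fold fall (-3.92 ± 0.67 SE, FDR = 0.00113). Its paralog Saa2 fell 20.3-fold with overlap (-4.34 ± 0.92 SE, FDR = 0.00872), and 31.1% of the windows of Saa1 also occur in Saa2. Lcn2, an iron-siderophore binding protein, had medians of 279.7 CPM (77.4 to 1992) and 21 CPM (17.4 to 70.9), without overlap (-3.52 ± 0.80 SE, FDR = 0.0145).

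Variation between animals was wide in these inducible genes. A control library reached 8893 CPM for Saa1 and 2315 CPM for Lcn2, while the control medians were 865 and 66 CPM. Saa1 at 427 mg/kg-d differed from controls by -2.61 on the log2 scale (FDR = 0.00401). Apcs, serum amyloid P, varied less, with 143 to 339 CPM (median 210.0) and then 61.3 to 99.7 CPM (median 82.5). All 6 libraries lay below the lower group (-1.41 ± 0.18 SE, FDR = 5.02e-05), and controls had 172 to 346 CPM.

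Orm1 and Orm2 encode orosomucoids, plasma carriers of small molecules, and lie on chromosome 4 on either side of Orm3 (chr4:63344560-63365878), which was tested and not called (-0.83 ± 0.31 SE, FDR = 0.155). Orm1 had 579.7 to 1500.1 CPM (median 724) and then 214 to 453 CPM (median 294), a fall without overlap (-1.47 ± 0.21 SE, FDR = 0.000154). Orm2 fell from a median of 131 to 17.8 CPM with overlap (-3.05 ± 0.69 SE, FDR = 0.0145). Hpx, the haem carrier hemopexin, had medians of 1635 and 973 CPM (-0.86 ± 0.18 SE, FDR = 0.00838). Haptoglobin, Hp, had 2758 and 1944 CPM and was not called (-0.62 ± 0.24 SE, FDR = 0.164).

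The 3 fibrinogen chain genes, all of which fell, share 1 locus (chr3:83007724-83049863). They set the ends of this interval, and no other gene was tested there. Fgg had medians of 3556 and 2434 CPM (-0.65 ± 0.15 SE, FDR = 0.0145), Fgb of 7848 and 4662 CPM (-0.62 ± 0.16 SE, FDR = 0.027) and Fga of 12155 and 8221 CPM (-0.56 ± 0.15 SE, FDR = 0.0429). Only 1 to 2 libraries of each upper group reached into the lower range. The calls of all 3 were lost in a fit of the 12 libraries alone (FDR = 0.0534 for Fgg and 0.0593 for Fgb). That of Fgb was also lost without animal 74, 75, 77, 78, 99, 100 or 102 (FDR up to 0.0693), and that of Fga without animal 74, 75, 77, 78, 97, 99, 100 or 102 (FDR up to 0.0965).

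Stat3, which encodes a factor that carries the interleukin 6 signal, was named here after its values were seen. It fell from a median of 299.6 CPM (228 to 384) to 166 CPM (148 to 203), without overlap (-0.83 ± 0.13 SE, FDR = 0.000319). Its part in the acute phase falls was not tested. Lrg1, a secreted glycoprotein named here after its values were seen, fell from 334 to 105 CPM in median (-1.45 ± 0.24 SE, FDR = 0.000941). The feedback inhibitor Socs3 was lower in all 6 upper libraries but did not pass (-0.55 ± 0.24 SE, FDR = 0.228), and neither did the receptor gene Il6ra (-0.21 ± 0.18 SE, FDR = 0.572). The chemokine Cxcl1 fell from 24.1 CPM (9.9 to 43.5) to 5.47 CPM (4.04 to 8.26), and Cxcl14 from 13.6 to 3.55 CPM, both without overlap (-1.72 ± 0.28 SE, FDR = 0.000603, and -1.65 ± 0.32 SE, FDR = 0.00483). Fabp5, a fatty acid binding protein, had medians of 710.0 and 250.1 CPM, again without overlap (-1.41 ± 0.22 SE, FDR = 0.000348).

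STAT factors bind a palindrome with the letters TTCNNNGAA, searched on 1 strand because it is its own reverse complement. It stood in the promoter windows, 250 bases before to 50 after the start in RefSeq on GRCm38.p6, of 3 of the 9 falling acute phase genes with a promoter entry. These 3 windows are shown in stretches of 100 bases because they carry the motif in genes that fell together, with the motif in capitals, Apcs on the minus strand at chr1:172895205-172895304, Fga on the plus strand at chr3:83025903-83026002 and Fgb on the minus strand at chr3:83049974-83050073.
Apcs: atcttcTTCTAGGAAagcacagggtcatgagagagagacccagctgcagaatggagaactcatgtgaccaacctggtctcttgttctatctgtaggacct
Fga: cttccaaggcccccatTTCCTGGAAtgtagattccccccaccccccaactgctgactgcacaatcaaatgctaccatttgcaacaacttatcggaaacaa
Fgb: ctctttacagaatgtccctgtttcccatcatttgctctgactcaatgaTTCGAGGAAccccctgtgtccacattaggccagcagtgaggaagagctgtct
The motif was in 9.55% of all 27025 promoters and in 8.36% of the 8975 promoters of tested genes. It was in 15 of the 117 promoters of genes that fell (12.8%) and in 8 of the 144 of genes that rose (5.56%), which describes the letters and not a bound site. The PPARα element DR1, a direct repeat of AGGTCA with 1 base between, searched on both strands, was in 0.0481% of all promoters, in 1 of the rising genes and in 0 of the falling ones.

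Markers of other cells were read beside these falls. All 10 listed Kupffer cell and macrophage markers had a step below 0, with a median of -0.30 and a summed level of 181.5 to 369.7 CPM (median 290.4) at 313 mg/kg-d and 163.7 to 245.1 CPM (median 224.8) at 427 mg/kg-d. Of them Adgre1 (F4/80), was called, at medians of 6.77 and 4.14 CPM (-0.58 ± 0.15 SE, FDR = 0.0343), and that call was lost without animal 73, 74, 75, 97, 99, 100, 101 or 102 (FDR up to 0.0925), while 5 macrophage markers were called without animal 76. The 2 neutrophil markers summed to 0.651 to 8.54 CPM (median 1.67) and then to 0.120 to 1.245 CPM (median 0.483), a few reads, and S100a8 and Retnlg were not called (FDR = 0.0857 and 0.0784). Both were called above controls at 313 mg/kg-d, with a median of 0.805 on the log2 scale, against 0.0769 at 427 mg/kg-d. None of the 12 endothelial, 11 stellate cell, 7 red blood cell, 7 pancreas, 6 lymphocyte, 4 cholangiocyte and 1 adipocyte markers passed the FDR in limma, with 2, 0, 0, 1, 0, 1 and 0 of them at an unadjusted p under 0.05. The part of macrophages or neutrophils in the acute phase falls was not tested.

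**Figure D3:**
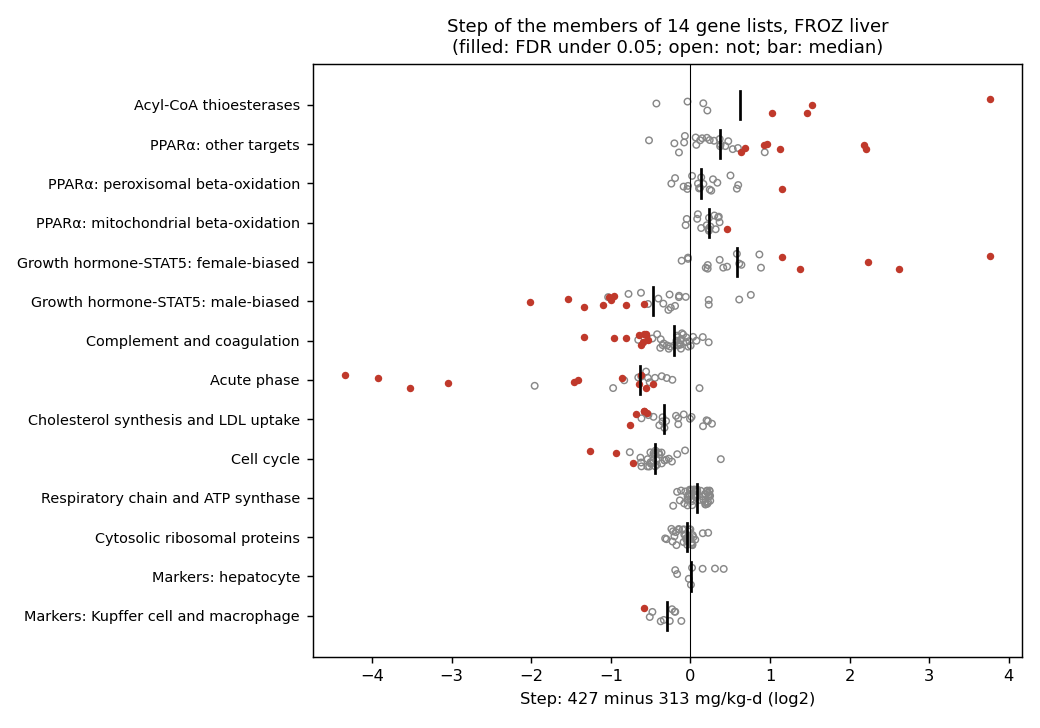
Each point is a member of 1 of 14 gene lists, placed by its step from 313 to 427 mg/kg-d in log2 units, filled where the FDR was under 0.05, with a bar at the list's median. The medians of the thioesterases and female-biased genes lie above 0 and those of acute phase, male-biased and complement genes below 0, and open points are found in every list.

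In a few genes the median changed direction between the steps. The tests given for them are those of the last step and, for Cyp3a25, of the difference between the 2 steps. Neither can by itself show a reversal. Cyp3a25, a steroid-metabolising P450, fell from 952 to 1625 CPM (median 1134) at 198 mg/kg-d to 491 to 831 CPM (median 729.9) at 313 mg/kg-d, and stood at 1183 to 1438 CPM (median 1362) at 427 mg/kg-d. The upper 2 groups did not overlap (0.98 ± 0.12 SE, FDR = 3.55e-05), and its 2 steps differed by 1.77 ± 0.22 SE (FDR = 5.09e-05). Cyp39a1, an oxysterol hydroxylase, had medians of 2.93, 1.03 and 4.21 CPM at 198, 313 and 427 mg/kg-d, with a last step of 1.18 ± 0.24 SE (FDR = 0.00719). Klhdc7b had medians of 12.3, 4.74 and 11.4 CPM, with a last step of 0.88 ± 0.20 SE (FDR = 0.0128).

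In the other direction, Cyb561, a cytochrome b561, rose from a median of 8.8 CPM to 14.5 CPM (12.5 to 20.3) and returned to 6.08 CPM (5.38 to 7.96). Its last step of -1.18 ± 0.17 SE (FDR = 0.000156) was without overlap. Ccne1, the G1/S cyclin E1, had medians of 4.72, 10.1 and 4.28 CPM (last step -1.26 ± 0.27 SE, FDR = 0.0105). The replication helicase gene Mcm2 had 6.27, 8.03 and 5.4 CPM, with the upper groups apart (-0.73 ± 0.17 SE, FDR = 0.0145), and Mcm6 likewise (-0.94 ± 0.22 SE, FDR = 0.0184), with a call lost without animal 101 or 102 (FDR = 0.0501 to 0.0515). These were the 3 falls among 32 cell cycle genes, of which 31 had a step below 0. The list's median log2 level minus the control mean ran from 0.237 to 1.11 in the libraries of the lower dose. In the upper group animals 98 and 99, with 0.718 and 0.861, lay inside that range. Animals 97, 100, 101 and 102 lay below it, with -0.165 to 0.109, so the count of 31 does not show a fall in every animal.

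Ccl2, a monocyte chemokine, was the 1 responder that turned back. It had 2.34 to 33.5 CPM (median 11.3) at 313 mg/kg-d and 1.32 to 4.75 CPM (median 3.02) at 427 mg/kg-d, with overlap (-1.37 ± 0.37 SE, FDR = 0.0429). The call was lost without animal 73, 74, 75, 77, 98, 99, 100, 101 or 102 (FDR = 0.0613 to 0.107).

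Of 31 genes in the urea cycle and amino acid list 3 rose and 1 fell. Mat1a, which makes S-adenosylmethionine, rose from a median of 1774 CPM (1519.8 to 2110.4) to 2803 CPM (2390.5 to 3431), without overlap (0.66 ± 0.11 SE, FDR = 0.00103). Cth, which makes cysteine, and the glutaminase gene Gls2 rose by 0.67 ± 0.15 SE (FDR = 0.0105) and 0.50 ± 0.11 SE (FDR = 0.0115). With Kmo, which fell (FDR = 0.0255, lost without animal 74, 98, 99 or 101, with FDR up to 0.0761), they were the called genes of this list. Of the growth arrest list, Gadd45b was called, at medians of 7.17 and 18.4 CPM (1.29 ± 0.28 SE, FDR = 0.0105). Trib1, a pseudokinase, rose from 124 to 196 CPM without overlap (0.65 ± 0.13 SE, FDR = 0.00657), and Gstt3, a glutathione transferase, from 31 to 60 CPM (0.94 ± 0.18 SE, FDR = 0.00483).

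No gene passed the FDR in limma among 16 core clock, 8 tyrosine breakdown, 14 glycogen, 15 heat shock, 12 immediate early, 26 apolipoprotein, 48 respiratory chain, 37 ribosomal protein and 28 proteasome genes. At an unadjusted p under 0.05 there were 8, 2, 5, 2, 2, 6, 9, 4 and 0 of them, in that order. Their median steps ran from -0.04 for the ribosomal proteins to 0.31 for the clock list, and an FDR that misses the threshold does not show that a gene held still. Of 26 interferon-stimulated genes 1 fell (Ifi47, FDR = 0.0313) and the median was -0.22. Its call was lost without animal 77, 78, 99, 100 or 102 (FDR up to 0.083).

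The animals given 313 mg/kg-d were not alike. Over the 39 plateau genes that were increased, the median log2 level above the control mean was 1.39, 1.33 and 1.33 in animals 73, 74 and 75, but 1.17, 0.99 and 0.83 in animals 76, 77 and 78. At 427 mg/kg-d it was 1.20 to 1.37 in all 6 animals. For the 39 genes still rising, the same libraries at 313 mg/kg-d gave 1.45, 1.30 and 1.31 against 0.87, 0.82 and 0.70, and at 427 mg/kg-d all were at 2.07 to 2.52. The order differed for the acute phase list, where animals 74 and 78 were highest (0.71 and 0.32) and animals 76 and 73 lowest (-0.39 and -0.21), while the upper dose gave -1 to -0.476 in all animals. The classes were defined from these libraries, so their separation is a description. Without animal 78 the plateau class held 83 genes, and without animal 73 it held 50. Water intake and handling of single animals were not analysed here, and their part in this spread was not tested.

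**Figure D4:**
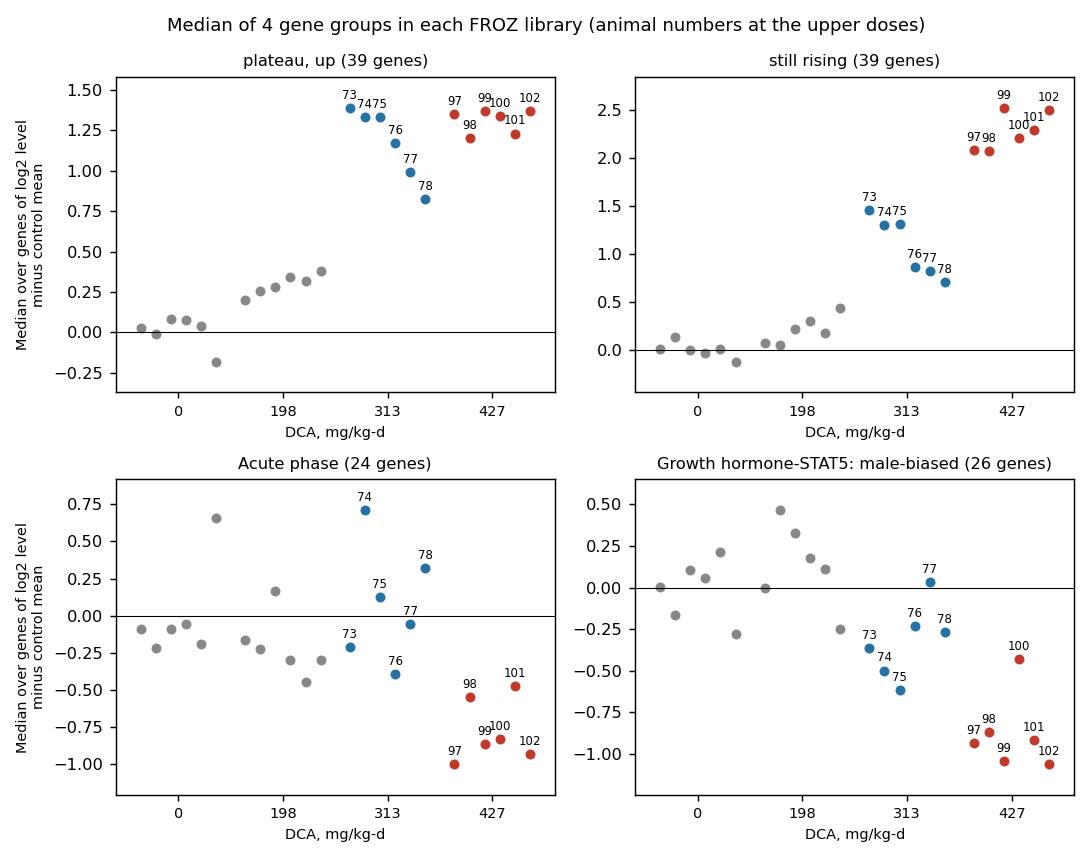
For 4 groups of genes, each point is 1 FROZ library, placed by dose in mg/kg-d and by the median over the group's genes of its log2 level minus the control mean, with animal numbers at the upper doses. At 313 mg/kg-d animals 76, 77 and 78 lie below animals 73, 74 and 75 for the plateau and the rising genes, while the acute phase medians are in another order.

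Formalin-fixed paraffin-embedded (FFPE) libraries of the same animals gave a second measurement, not an independent one. They held 3.09 to 4.80 M reads at 313 mg/kg-d and 4.23 to 6.01 M at 427 mg/kg-d, and the median SE of the step was 0.78 against 0.14 in FROZ. Of 6673 genes 25 (0.375%) were called, 8 up and 17 down. The median step over all FFPE genes was 0.29, so it is given beside the directions. Of the 257 genes called in FROZ that FFPE also lists, 143 of 156 rises were above 0 and 75 of 101 falls below 0, or 130 and 83 when counted against the FFPE median. Called in both were 17 genes, 6.61% of the FROZ calls listed in FFPE and 68% of the FFPE calls, all in the same direction.

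In FFPE 7 of 19 acute phase, 4 of 41 complement and coagulation and 5 of 20 male-biased genes fell, and 0 of each list rose. The lists share genes, so these counts overlap. C9 and C8a are both complement and male-biased genes, and Fgb is on the acute phase and the complement and coagulation lists. Saa1 fell by 4.28 on the log2 scale (SE 0.80, FDR = 0.00596), Apcs by 2.42 (SE 0.31, FDR = 2.33e-05), Serpina1e by 2.92 (SE 0.37, FDR = 2.33e-05), Cyp7b1 by 2.62 (SE 0.47, FDR = 0.00466) and C9 by 1.19 (SE 0.22, FDR = 0.00596). Lpin2 rose by 1.42 (SE 0.19, FDR = 2.78e-05) and Acsl1 by 0.94 (SE 0.17, FDR = 0.00466). Acot3 had a step of 3.89 ± 0.98 SE that was not called (FDR = 0.084), close in size to that in FROZ. Stat3 had a step of 0.67 ± 0.46 SE in FFPE (FDR = 0.64), opposite in sign to FROZ. When the 2 libraries of an animal were taken as a pair and their difference was fitted in limma, the step differed for 0 of 6591 genes, with 458 at an unadjusted p under 0.05.

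**Figure D5:**
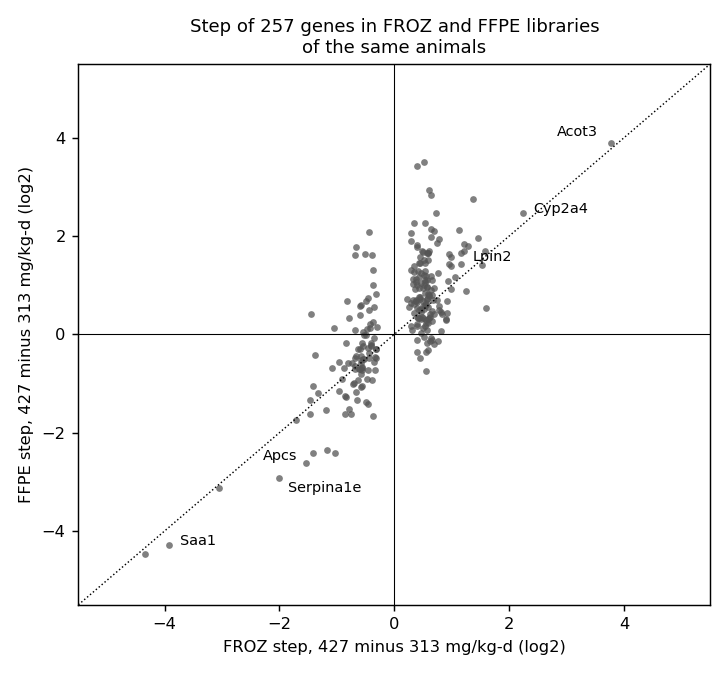
The step from 313 to 427 mg/kg-d in log2 units is plotted for the 257 genes called in FROZ and listed in FFPE, with FROZ on the x axis, FFPE on the y axis and a dotted line of equality. Acot3, Cyp2a4, Lpin2, Serpina1e, Apcs and Saa1 lie near the line or beyond it in the same direction, and most points of the rises lie above 0.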

How the data were processed

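TempO-Seq, in which detector oligos ligated on a transcript are amplified and counted, was run on 1 FROZ and 1 FFPE liver library of each animal. Per the labels and the study's methods, the authors aligned trimmed reads to mm10 with STAR 2.6 in Partek Flow, counted RefSeq transcripts by expectation maximization, filtered out genes whose geometric mean did not exceed 1, scaled to CPM and deposited log2(CPM + 1) values. Abundant probes were attenuated, and each table was scaled on its own. CPM and the worth of 1 read were recovered from the low values, of which 95.7 to 96.6% came out whole within 0.02 reads. Reads carry no molecular identifiers, so the worth of 1 read describes counting error only, and p-values measure the spread between the sampled animals.

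Steps were tested with limma 3.58.1 in R 4.3.3, with a mean-dependent variance prior, on the 24 FROZ libraries, and p-values were adjusted over all 11275 genes by Benjamini-Hochberg (FDR). The script was tested on simulated data. FFPE values were fitted alike, and the preservation difference was fitted on the within-animal difference of the 2 libraries, a replicate block by animal. FROZ and FFPE libraries were paired by animal number, and over 4817 genes their deviations from the dose means correlated at a median r of 0.148 (0.0848 to 0.22) within the 12 animals and -0.0247 between animals of a dose. Dose groups share no animal.

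Members and gene lists were chosen with earlier results of these data known. Genes were named as the 10 largest rises and falls without overlap between libraries, the 8 largest increases and decreases on the plateau, the 5 largest steps of responders each way and those turning back, up to 6 called members of each list or else its first 2, the 5 lowest p of the change of step each way, and marker genes of the study. Lrg1, Stat3 and some list members were named after their values were seen, and some results are not reported here. Positions and shared 50-base windows came from GRCm38 annotation and promoters from RefSeq (GRCm38.p6). Alternatives covered offsets, scaling, a filter, fewer libraries, the variance prior, library weights, limma-voom on recovered reads, an exact rank sum test, the class rules and leaving out each of the 12 libraries.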

Additional observations from a re-analysis of the deposited data

Results flagged for a closer look

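In 9 of 218 groups of 6 libraries (109 named genes at 2 doses, 4.13%), the highest or lowest library stood farther from the others than Dixon's 95% critical value for 6 samples allows, where chance gives about 1 in 20. Animal 78 was the lowest library at 313 mg/kg-d for Acaa1a (735 CPM, next 1868, ratio 0.715), Ehhadh (16.8 CPM, next 64.49, ratio 0.628) and Elovl3 (687.1 CPM, next 1538, ratio 0.702). Animal 98 was the lowest at 427 mg/kg-d for Acot2 (22.43 CPM, next 47.01, ratio 0.699) and Acaa1a (1235 CPM, next 2127, ratio 0.691). Animal 74 was the highest at 313 mg/kg-d for Socs3 (4.878 CPM, next 1.377, ratio 0.908) and animal 76 for Elovl6 (169.1 CPM, next 116.9, ratio 0.655). At 427 mg/kg-d animal 99 was the highest for Slc16a5 (252.8 CPM, next 134.2, ratio 0.702) and animal 101 for Scara5 (0.5331 CPM, next 0.2392, ratio 0.656).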

How the results depend on the processing

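The exact rank sum test of 6 against 6 libraries, whose smallest p is 0.00216, gave 0 called genes, 0 rises, 0 falls and 0 DEGs, with 1619 genes at an unadjusted p under 0.05, against 346 called genes and 1975 at an unadjusted p under 0.05 in limma. Other fits of the FROZ step called 271 to 428 genes. With a narrower plateau margin 6 responders were on the plateau, and with a margin of 2-fold 160, with 77 undecided. When responders were chosen at 313 mg/kg-d, 30 were still moving and 11 turned back, and when chosen at 427 mg/kg-d, 98 and 0. Both choices reuse a dose mean that enters the step, which tilts these counts by construction. Offsets of 0.1 and 0.0001 gave 479 and 479 responders with 351 and 362 undecided, and 2 turned back with 0.1. Median-ratio scaling and a prior without trend left 0 turning back, and that prior gave 144 changes of step and 5 FFPE calls. Library weights gave 47 FFPE calls. Without the replicate block by animal, the FFPE and FROZ steps differed for 1 gene, against 0 when paired. The causes of the other differences were not tested. Leaving out 1 library in turn gave 187 (without animal 99) to 387 (without 73) called genes, 107 to 229 rises, 80 to 158 falls, 37 to 62 still moving, 0 to 5 turning back (5 without 78, 2 without 76 or 97, 0 without 73, 74, 75, 98, 99, 100, 101 or 102), 32 to 320 changes of step (320 without 78), and 10 (without 102) to 54 (without 78) FFPE calls, with 11 without 75 or 77 and 15 without 99. Of 102 called genes singled out, none reversed in any alternative, and 34 lost the call without animal 99, 30 in a fit of the 12 libraries alone and 102 in the rank sum test. Not every such loss is named beside its gene. Low-count genes were limited by depth, with 3 reads worth 0.37 CPM in the median library.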
